A study of Mus musculus with 8 samples.

Results

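The genes of the acetylcholine receptor and of the neuromuscular junction were examined in tibialis anterior (TA) muscle of dystrophic mice. They were 10 of the 55401 gene rows in the table, chosen by symbol: the 5 muscle receptor subunits Chrna1, Chrnb1, Chrnd, Chrne and Chrng, the organizers Musk, Rapsn, Dok7 and Lrp4, and the esterase Ache. RNA-seq was done on whole TA muscles from 6-month-old males, 4 from wild-type (WT) mice of the C57/Bl6 strain and 4 from mdx5cv mice, a model of Duchenne muscular dystrophy (DMD) with a mutated Dmd gene on the B6 background. No treatment is given in the labels, and they number the 4 samples of each genotype without saying that each came from a separate animal, so p-values measure the spread between these samples. Total RNA was taken from the whole muscle, so the signal comes from muscle fibers, nerve branches, blood, immune cells and connective tissue together, and fewer cells of a type cannot be told apart from less RNA per cell.

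Values are normalized counts, which are the reads of a gene divided by a size factor of the muscle. Between 13862559 and 14921057 reads per muscle were counted in WT and between 13175524 and 14502624 in mdx5cv. Dmd, the mutated gene, had 6169 to 8155 normalized counts in WT muscles and 3461 to 4400 in mdx5cv muscles, without overlap. The groups were compared with limma over 13677 genes, those that averaged 10 or more normalized counts, and a gene was called at a Benjamini-Hochberg adjusted p under 0.05. All 10 junction genes passed this filter, although Chrng did so only through its mdx5cv values. Log2 fold changes are mdx5cv minus WT on log2(normalized count + 1), on which genes with few reads show less than their full change.

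The neuromuscular junction is the synapse at which a motor nerve releases acetylcholine onto a muscle fiber. The receptor that receives it is a channel built from alpha, beta and delta subunits with either a gamma subunit, in fetal and denervated muscle, or an epsilon subunit, in the adult junction. Nuclei beneath an adult junction transcribe the subunit genes, while nuclei elsewhere in the fiber are kept silent by electrical activity, and this silencing is lost on denervation and is not yet in place in young, newly formed fibers. Agrin from the nerve binds LRP4, which activates the kinase MuSK with the help of the adaptor DOK7, and rapsyn then holds the receptors in dense clusters. Acetylcholinesterase, the product of Ache, ends the signal by splitting acetylcholine.

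The gamma and epsilon genes have different promoters, and the sequences upstream of both are shown, with that of the alpha gene, because the balance of the subunits is described below. Muscle regulatory factors such as myogenin bind E-boxes, often of the form CAGCTG, and a factor of the Ets family binds the N-box CCGGAA in synaptic genes. Each sequence covers 250 to 31 bases before the transcription start of RefSeq on GRCm38.p6, 5′ to 3′ on the strand of the gene, with CAGCTG and CCGGAA in capitals. The windows were chr1:87205561-87205780 (+) for Chrng, chr2:73580369-73580588 (-) for Chrna1 and chr11:70619225-70619444 (-) for Chrne. The Chrng window lies inside the gene as GENCODE M21 bounds it (87204657 to 87212694), because that annotation starts the gene further upstream than the RefSeq start used here.
Chrng: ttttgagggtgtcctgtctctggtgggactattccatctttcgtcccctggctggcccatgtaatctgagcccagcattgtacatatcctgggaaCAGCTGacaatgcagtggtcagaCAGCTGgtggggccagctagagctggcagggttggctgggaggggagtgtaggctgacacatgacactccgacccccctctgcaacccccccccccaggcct
Chrna1: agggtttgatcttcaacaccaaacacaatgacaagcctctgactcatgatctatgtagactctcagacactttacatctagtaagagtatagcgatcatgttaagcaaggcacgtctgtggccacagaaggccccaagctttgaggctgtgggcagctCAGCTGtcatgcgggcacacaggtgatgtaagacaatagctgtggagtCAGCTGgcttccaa
Chrne: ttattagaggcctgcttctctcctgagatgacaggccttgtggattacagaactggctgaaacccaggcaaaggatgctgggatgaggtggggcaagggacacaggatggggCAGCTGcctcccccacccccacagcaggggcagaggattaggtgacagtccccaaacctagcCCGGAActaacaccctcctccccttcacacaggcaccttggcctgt
Promoter windows of 300 bases, 250 before and 50 after the start, were matched for 7 of the 10 genes in 8 windows. Chrnd, Rapsn and Lrp4 were not matched. CAGCTG, which reads the same on both strands and is 1 form of the general E-box CANNTG, was found at 155 and 132 bases before the start of Chrng and at 92 and 44 bases before that of Chrna1. It occurred once in the window of Chrne, 138 bases before the start, and once in that of Musk, 68 bases before the start. Of all 32851 windows, 16.3% held CAGCTG and 1.896% held it at least 2 times. The N-box, searched on both strands, was found in the window of Chrne alone among the 7 genes, 76 bases before the start, and in 14.9% of all windows. The general E-box was in 72.3% of all windows and in the windows of all 7 genes, with between 1 and 3 matches for each gene. These matches describe letters in a window and were not tested as sites.

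Of the 10 junction genes, 6 were higher and none was lower in mdx5cv TA muscle. Chrna1, Chrnb1, Chrnd, Chrng, Dok7 and Ache were called higher by limma, beside 20.9% of all genes called higher and 20.1% called lower. Of these, 4 also had a log2 fold change of at least 1, namely Chrna1, Chrnd, Chrng and Ache, beside 10.3% of all genes. Every mdx5cv muscle was above every WT muscle for the same 6 genes, and for 20.3% of all genes. Chrng is in each of these counts, although it was tested only through its mdx5cv values. With at least 10 in every sample, where Chrng was not tested, 5 of 9 junction genes were called higher, beside 2135 of 11784 genes. Of those 9, 3 were called with a log2 fold change of at least 1. The median log2 fold change was 0.56 over the 10 genes and 0.00 over all genes tested, and the former is the same for any Chrng fold change above that of Chrnb1. Chrne, Musk, Rapsn and Lrp4 were not called. The plot of junction genes by muscle gives each value.

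**Figure D1:**
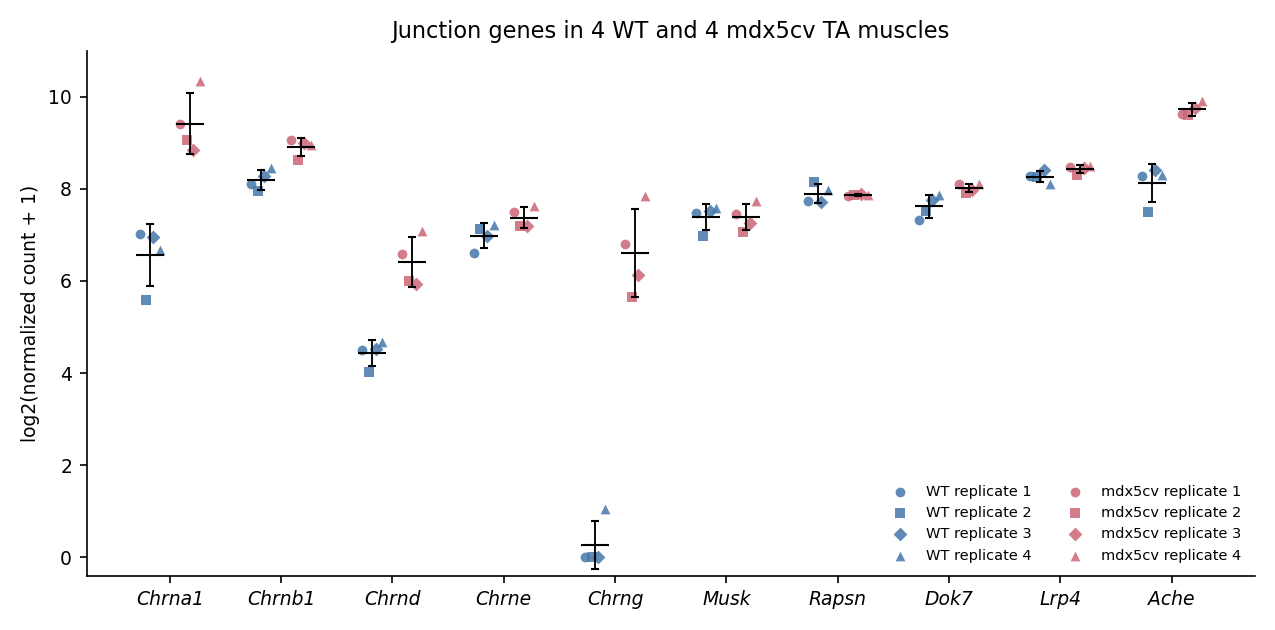
Log2(normalized count + 1) of the 10 junction genes in each of 4 WT (blue) and 4 mdx5cv (red) TA muscles, with a marker shape for each replicate number, a horizontal bar for the mean and an error bar for the SD. The groups are separate for Chrna1, Chrnb1, Chrnd, Chrng, Dok7 and Ache and overlap for Chrne, Musk, Rapsn and Lrp4, and Chrng lies at 0 in 3 of the 4 WT muscles.

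The gamma subunit gene Chrng, which encodes the fetal form of the receptor (chromosome 1, 87204657 to 87212694, plus strand, GRCm38), was close to absent in WT muscle. It had 0, 0, 0 and 1 reads in the 4 WT muscles and 119, 52, 77 and 288 reads in the 4 mdx5cv muscles. In normalized counts the mdx5cv values were 110, 49.1, 69.3 and 230, with a mean of 115 ± 81.1 (SD, n = 4), so each of the 4 muscles had the transcript and they spread widely among themselves. The ratio of the summed reads, after scaling by the size factors, was 433 with a 95% exact interval from 77.3 to 17117, which covers counting error only. The fitted log2 fold change was 6.35 (standard error 0.47, adjusted p = 1.23e-06 from limma). Because WT is near 0, this fitted value depends on the pseudocount and ranged from 3.39 to 9.03 over the alternatives tried, with a limma, edgeR or DESeq2 adjusted p of at most 6.19e-05 in the 19 alternatives that tested the gene.

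Chrna1 encodes the alpha subunit, which carries most of the acetylcholine binding site (chromosome 2, 73563215 to 73580338, minus strand). Its normalized counts were 128, 47.2, 124 and 102 in WT muscles and 676, 535, 462 and 1298.5 in mdx5cv muscles. The highest WT value lay far below the lowest mdx5cv value, and 1 muscle in each group stood away from the rest, WT replicate 2 on the low side and mdx5cv replicate 4 on the high side. The mean rose from 100 ± 37.3 to 743 ± 381 (SD, n = 4 each), a ratio of 7.41 and a log2 fold change of 2.85 (95% interval 2.14 to 3.57, adjusted p = 2.81e-05 from limma).

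Chrnd, the delta subunit gene, lies 4586 bases upstream of Chrng on the same strand by the GENCODE M21 bounds (chromosome 1, 87190607 to 87200070). It had 21.8, 15.4, 22.1 and 24.4 normalized counts in WT and rose to 95.4, 63.2, 60.3 and 135 in mdx5cv. Here too WT replicate 2 was the lowest muscle and mdx5cv replicate 4 the highest, without overlap of the groups. The means were 20.9 ± 3.87 and 88.5 ± 34.9 (SD, n = 4 each), and the log2 fold change was 1.97 (95% interval 1.41 to 2.53, adjusted p = 7.88e-05 from limma).

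The beta subunit gene Chrnb1 (chromosome 11, 69784036 to 69795943, minus strand) changed less. It had 273, 246, 310 and 349 normalized counts in WT muscles and 536, 397, 511 and 495 in mdx5cv muscles. All mdx5cv values were above all WT values, and mdx5cv replicate 4 was not the highest. The mean rose from 294 ± 44.7 to 485 ± 61.0 (SD, n = 4 each), a log2 fold change of 0.72 (95% interval 0.43 to 1.01, adjusted p = 0.000917 from limma).

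The epsilon subunit gene Chrne (chromosome 11, 70614883 to 70619216, minus strand), which gives the adult form of the receptor, was not called. Its normalized counts were 96.3, 138, 125 and 148 in WT muscles and 179, 144, 146 and 197 in mdx5cv muscles. Of the mdx5cv muscles, 2 lay below the highest WT muscle, and the other two lay above all WT muscles. The means were 127 ± 22.6 and 167 ± 25.96 (SD, n = 4 each), and the log2 fold change of 0.40 had a 95% interval from 0.05 to 0.74 and an adjusted p of 0.0649 in limma. The gene was called when WT replicate 4 was left out (log2 fold change 0.48, adjusted p = 0.0409 from limma) and when each muscle was scaled to the same total (0.75, adjusted p = 0.00898 from limma), a scaling that moved the median of all genes to 0.36.

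The balance of gamma to epsilon was then compared within each muscle, first as a share of reads, from which the size factor cancels. Gamma made up 0 of 84, 0 of 126, 0 of 113 and 1 of 141 reads on the pair of genes in the WT muscles, and the counts of 0 allow shares of up to 3.57%, 2.38% and 2.65% (3 reads of the total), with 95% Clopper-Pearson upper limits of 4.2965%, 2.89% and 3.21%. In the mdx5cv muscles gamma made up 38.1% of 312 reads, 25.4% of 205, 32.2% of 239 and 53.8% of 535. The 95% Clopper-Pearson intervals of these shares were 32.7% to 43.8%, 19.6% to 31.9%, 26.3% to 38.5% and 49.5% to 58.1%, which cover counting error only. Replicate 4 had the highest share and replicate 2 the lowest, and the mean was 37.4% ± 12.1 (SD, n = 4).

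Because the merged exons of Chrng are longer than those of Chrne (4163 against 1690 bases), the share was also taken per kilobase of exon. On that scale gamma was 20.02%, 12.1%, 16.2% and 32.1% of gamma plus epsilon in the mdx5cv muscles, with a mean of 20.1% ± 8.63 (SD, n = 4), and with the length of the longest protein-coding transcript in place of the merged exons the mean was 26.2% ± 10.3. Epsilon therefore remained the larger part per unit length in all 4 mdx5cv muscles under both lengths. Together both genes had 127 ± 22.9 normalized counts in WT, against 281 ± 106 in mdx5cv (SD, n = 4 each), with ranges of 96.3 to 149 and 193 to 428.

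The log2 ratio of Chrng to Chrne, taken on normalized counts + 1, was -6.60, -7.12, -6.98 and -6.18 in WT muscles and -0.69, -1.54, -1.06 and 0.22 in mdx5cv muscles. It was higher in 4 of 4 mdx5cv muscles, by 5.95 between the means (two-sided exact permutation p = 0.0286, the smallest that 4 against 4 samples allow, and 0.0381 adjusted over the 4 subunit ratios tested). With gamma at 0 in 3 WT muscles the size of this difference is set by the pseudocount, and it was 8.63 with a pseudocount of 0.1 and 3.02 with 10. The ratios of alpha and delta to epsilon rose as well. That of Chrna1 was -0.42 ± 0.84 in WT and 2.04 ± 0.46 in mdx5cv, and that of Chrnd was -2.55 ± 0.41 and -0.97 ± 0.32 (SD, n = 4 each, exact permutation p = 0.0286 and adjusted p = 0.0381 for both). The ratio of beta to epsilon was 1.21 ± 0.28 in WT and 1.54 ± 0.20 in mdx5cv, and these values overlapped (difference 0.33, exact permutation p = 0.114). Within a muscle, then, gamma, alpha and delta transcripts rose against epsilon, and the test did not separate beta from epsilon.

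**Figure D2:**
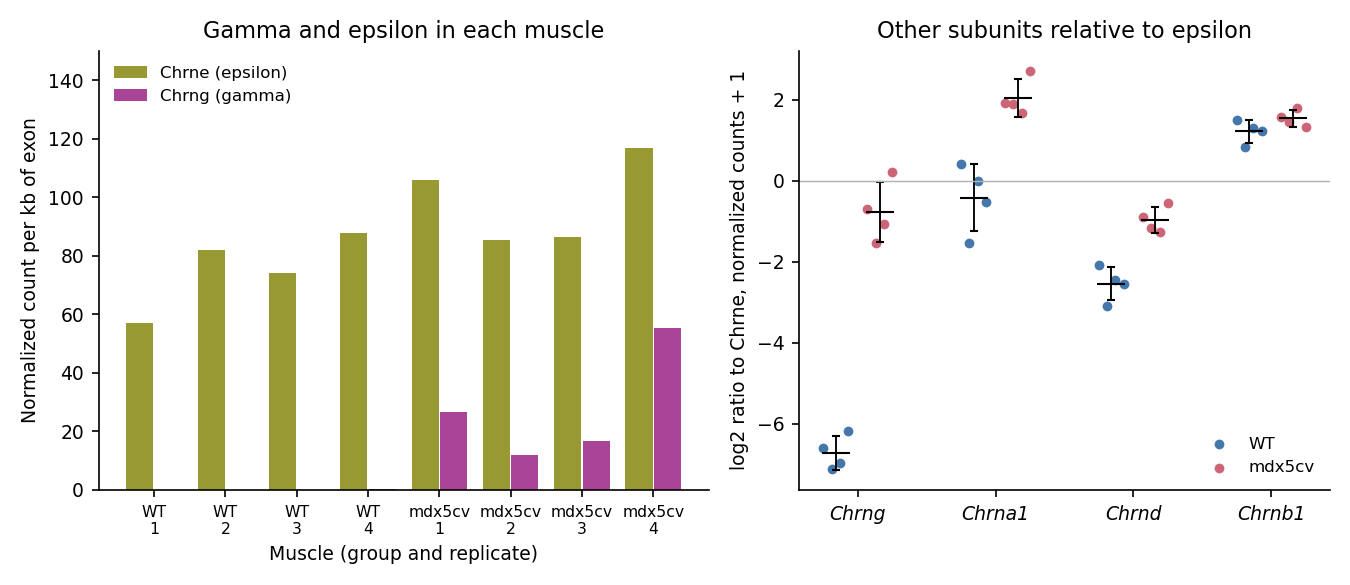
Left, normalized counts per kilobase of merged exon of Chrne (epsilon) and Chrng (gamma) in each muscle, on a linear axis that starts at 0. Right, log2 ratio of each other subunit to Chrne within a muscle, on normalized counts + 1, with 1 point for each muscle, a bar for the mean and an error bar for the SD. Gamma is visible in the 4 mdx5cv muscles and lies below epsilon in each, and the ratios to epsilon of Chrng, Chrna1 and Chrnd do not overlap between the groups while that of Chrnb1 does.

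The organizers of the receptor cluster moved little. Musk, the kinase at the center of the agrin pathway (chromosome 4, 58285960 to 58374303, plus strand), had 178, 125, 184 and 190 normalized counts in WT and 174, 133, 153 and 212 in mdx5cv. The groups covered nearly the same range, with means of 169 ± 29.7 and 168 ± 33.7 (SD, n = 4 each). The log2 fold change was -0.01 with a 95% interval from -0.38 to 0.36 (adjusted p = 0.967 from limma), so that a change of the size seen in Chrna1, Chrnd or Chrng lies outside the interval.

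Rapsn, whose product rapsyn anchors the receptor (chromosome 2, 91035620 to 91045729, plus strand), had 213, 282, 209 and 251 normalized counts in WT and 231, 231, 235 and 233 in mdx5cv. The 4 mdx5cv values lay within the range of the WT values and close to each other. The means were 239 ± 34.4 and 233 ± 2.02 (SD, n = 4 each), with a log2 fold change of -0.03 (95% interval -0.29 to 0.23, adjusted p = 0.877 from limma). Lrp4, the agrin receptor (chromosome 2, 91457511 to 91513779, plus strand), had 312, 304, 338 and 276 normalized counts in WT and 357, 314, 350 and 360 in mdx5cv. Only mdx5cv replicate 2 fell within the WT range, and the log2 fold change of 0.17 was not called (95% interval -0.06 to 0.40, adjusted p = 0.224 from limma). With equal totals Lrp4 was called at 0.53 (adjusted p = 0.00639 from limma), while Musk at 0.35 and Rapsn at 0.33 lay near the median of all genes under that scaling and were not called.

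Dok7, the cytoplasmic activator of MuSK (chromosome 5, 35056766 to 35087839, plus strand), was the only organizer that was called. It had 159, 183, 217 and 233 normalized counts in WT and 273, 240, 252 and 272 in mdx5cv. The lowest mdx5cv muscle lay just above the highest WT muscle. The mean rose from 198 ± 33.1 to 259 ± 16.4 (SD, n = 4 each), a log2 fold change of 0.40 (95% interval 0.11 to 0.69, adjusted p = 0.0276 from limma). This call was lost without WT replicate 1 (adjusted p = 0.0906), without WT replicate 2 (0.0528), without mdx5cv replicate 1 (0.0739), without mdx5cv replicate 4 (0.0595) and with each muscle centred on its median (0.0776), all by limma, with log2 fold changes of 0.30 to 0.38.

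Ache, the gene of acetylcholinesterase (chromosome 5, 137287519 to 137294466, plus strand), rose in every mdx5cv muscle. It had 308, 181, 338 and 315 normalized counts in WT and 787, 779, 863 and 966 in mdx5cv. The lowest mdx5cv muscle had more than any WT muscle, and the mdx5cv muscles were closer to each other than for the receptor subunits. The mean rose from 286 ± 70.9 to 849 ± 86.9 (SD, n = 4 each), a log2 fold change of 1.603 (95% interval 1.23 to 1.97, adjusted p = 1.57e-05 from limma). Red blood cells also carry acetylcholinesterase. Of 5 erythrocyte markers tested 3 were lower and none was higher, beside 20.1% of all genes called lower, with a summed level of 695 to 1250 in WT and 344 to 736 in mdx5cv, and their part in the level of Ache was not tested. Ufsp1, a protease gene that starts 162 bases past the end of Ache on the same strand, rose too, with 96.3, 17.6, 84.0 and 102 normalized counts in WT and 159, 149, 130 and 153 in mdx5cv (log2 fold change 1.23, adjusted p = 0.0309 from limma). A noncoding gene on the other strand, Gm42456, shares 98 exonic bases with Ache and had at most 8 reads in any muscle.

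**Figure D3:**
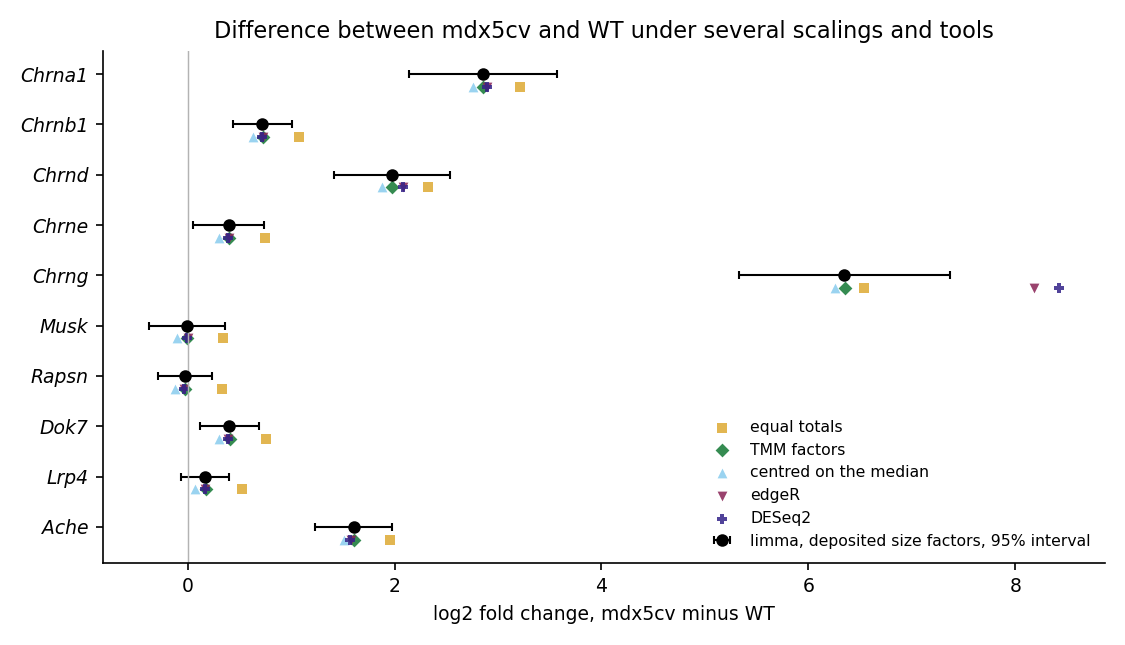
Log2 fold change (mdx5cv minus WT) of each junction gene. Black points and bars give the limma estimate with its 95% interval on the deposited size factors, and colored symbols give the estimate under equal totals, TMM factors, centring on the median, edgeR and DESeq2. Chrng, Chrna1, Chrnd and Ache lie above 1 under every one of these, Chrng is the gene whose estimate moves most between tools, and equal totals shift these genes to the right.

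Levels were compared between genes per kilobase of merged exon. In WT muscle the order of mean levels was Rapsn at 133 ± 19.1, Chrnb1 at 116 ± 17.7, Chrne at 75.1 ± 13.4, Ache at 61.8 ± 15.3, Dok7 at 46.3 ± 7.75, Musk at 44.7 ± 7.86, Lrp4 at 29.3 ± 2.42, Chrna1 at 22.9 ± 8.496, Chrnd at 6.36 ± 1.18 and Chrng at 0.0636 ± 0.127 normalized counts per kilobase (SD, n = 4). The ranges over muscles overlapped between Rapsn and Chrnb1, between Chrne and Ache, between Ache, Dok7 and Musk, and between Lrp4 and Chrna1. The ranges of Chrnb1 and Chrne, of Musk and Lrp4, of Chrna1 and Chrnd, and of Chrnd and Chrng did not overlap.

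In mdx5cv muscle the highest mean levels per kilobase were those of Chrnb1 at 192 ± 24.1, Ache at 184 ± 18.8, Chrna1 at 169 ± 86.9 and Rapsn at 129 ± 1.12. The lowest were those of Chrnd at 26.9 ± 10.6 and Chrng at 27.6 ± 19.5 (SD, n = 4), whose ranges overlapped. Chrna1 thus moved from the 8th to the 3rd place, with a range from 105 to 296 that overlapped those of Chrnb1, Ache and Rapsn. Rapsn, first in WT, was 4th in mdx5cv without a change in its own level that passed the test. Alternative transcripts make the length uncertain, and for Ache the merged exons have 4623 bases and the longest protein-coding transcript 2186, which would put Ache at 131 in WT and 388 in mdx5cv.

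The 4 mdx5cv muscles did not carry the changes equally. Replicate 4 was the highest mdx5cv muscle for 7 of the 10 genes and replicate 2 the lowest for 7. The genes highest in replicate 4 include Chrne, Musk and Lrp4, which were not called. The called genes Chrnb1 and Dok7 were highest in mdx5cv replicate 1. Among WT muscles, replicate 2 was the lowest for 5 genes and replicate 4 the highest for 6. Markers of regenerating fibers, which are young fibers formed after damage, were also highest in mdx5cv replicate 4. The summed level of Myh3, Myh8, Mymk, Mymx, Myog and Tnnt2 was 126 to 164 in WT muscles and 5033, 2329, 3162 and 8746 in mdx5cv replicates 1 to 4. All 6 genes were called higher, beside 20.9% of all genes, but Mymk and Mymx passed the filter on mean level only through their mdx5cv values. With at least 10 in every sample, 3 of the 6 genes were tested and all 3 were higher. Mymk, which encodes a protein needed for fusion of myoblasts, had 198, 115, 114 and 448 normalized counts in these muscles and at most 1 read in any WT muscle. Mymx, a partner of Mymk in fusion, had no read in WT and 24.5 to 88.7 normalized counts in mdx5cv, at least 13.5-fold higher than a floor of 3 reads per library.

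The embryonic myosin gene Myh3 had 30.7 to 48.7 normalized counts in WT and 3346, 1279, 1820 and 5957 in mdx5cv replicates 1 to 4. The order of the mdx5cv muscles was the same by Chrng and by Myh3, which makes up most of the summed markers. Other markers gave other orders below replicate 4, with Mymk and Myog lowest in replicate 3 and Myh8 higher in replicate 3 than in replicate 1. Markers of satellite cells, the stem cells of muscle, summed to 425 to 525 in WT and to 660 to 1177 in mdx5cv. Of 5 genes tested, Myod1 (1.44) and Pax7 (0.91) were called higher, beside 20.9% of all genes. The part of newly formed fibers in the rise of the subunits was not tested. With both WT replicate 2 and mdx5cv replicate 4 left out, 5 of the 10 genes were called higher, with Dok7 lost, and the same 4 passed a log2 fold change of at least 1. The log2 ratio of Chrng to Chrne then differed by 5.49 (exact permutation p = 0.10, the smallest that 3 against 3 samples allow).

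The genes most like Chrng in their pattern, by Pearson correlation of log2 levels over the 8 muscles among 7641 genes with a mean of at least 100, were Mymk (r = 0.999), Col6a1 (0.998) and Tubb6 (0.998). Col6a1, a collagen VI chain, had 497 to 604 normalized counts in WT and 1399 to 2195 in mdx5cv, and the tubulin gene Tubb6 had 71.1 to 118 and 597 to 1454. Those most like Chrne were Man1b1 (0.985), Cant1 (0.958) and Rfwd3 (0.955), each of which varied over a narrow range such as 170 to 217 and 211 to 259 for Man1b1. These correlations hold the difference between the groups as well as the spread within them and are given as a description.

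Other genes of the junction were read from lists of known genes. Of 11 genes of the synaptic cleft and basal lamina, 6 were higher and 3 were lower, beside 20.9% and 20.1% of all genes. The median log2 fold change of the 11 genes was 0.37, beside 0.00 for all genes. With at least 10 in every sample, 5 of 10 were higher and 3 were lower. Colq, the collagen tail that holds acetylcholinesterase in the cleft, rose from 55.6 ± 1.55 to 91.1 ± 12.4 normalized counts (SD, n = 4 each, log2 fold change 0.69, adjusted p = 0.00245 from limma). Bche, which encodes the related butyrylcholinesterase, moved against Ache, with 97.5 to 160 normalized counts in WT and 27.8 to 45.5 in mdx5cv (-1.66, adjusted p = 3.63e-05 from limma). Agrn, the gene of agrin, was at 207 ± 17.6 and 222 ± 24.3 and was not called (adjusted p = 0.533 from limma).

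The collagen IV chains of the basal lamina moved in different directions. Col4a5 had 17.7 to 36.2 normalized counts in WT and 145 to 207 in mdx5cv (log2 fold change 2.62), and Col4a6 rose by 1.81 on the log2 scale. Col4a6 had a WT mean of 6.01 and passed the filter on mean level only through its mdx5cv values. Col4a3 fell by 1.34 on the log2 scale, with 56.4 to 81.2 in WT and 11.2 to 40.6 in mdx5cv. Nid2 (1.01) and Col13a1 (1.06), whose products are found at the synapse, were called higher as well, and Col13a1 overlapped between the groups.

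Of 15 effectors downstream of MuSK, 7 were higher and 1 was lower, beside 20.9% and 20.1% of all genes, with a median log2 fold change of 0.12. When each muscle was centred on its median 5 were higher and 3 lower, and 2 were lower without WT replicate 1 or without mdx5cv replicate 3. The kinase gene Src rose from 22.2 to 38.7 normalized counts in WT to 47.7 to 83.1 in mdx5cv (1.01, adjusted p = 0.00291 from limma), and it was the only gene of this list past a log2 fold change of 1. Neuregulin receptors are also found at the junction. Erbb2 (1.18, adjusted p = 0.000306) and Erbb3 (0.88, adjusted p = 0.00148, both from limma) were called higher among 6 genes tested of that pathway, beside 20.9% of all genes. Etv5 and Gabpa, which encode Ets family factors, were not called.

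Of 9 genes that respond to the loss of the nerve, 5 were higher and 1 was lower, beside 20.9% and 20.1% of all genes. The median log2 fold change of the 9 genes was 0.98. With at least 10 in every sample, 4 of 7 genes were higher and none was lower. Runx1 went from 39.0 to 60.4 normalized counts in WT to 453 to 941 in mdx5cv (log2 fold change 3.51), and Myog, which encodes myogenin, from 30.9 to 46.4 up to 221 to 754 (3.14). Dach2, a repressor of Myog, went from 79.4 to 203 in WT to at most 3.77 in mdx5cv (-5.60, adjusted p = 6.23e-07 from limma). Hdac4, which encodes a deacetylase that acts in the denervation response, was at 1164 ± 116 and 1117 ± 67.1 and was not called, nor were Hdac5 and Hdac9. Myog is also on the list of regenerating fibers, so the lists are not independent.

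**Figure D4:**
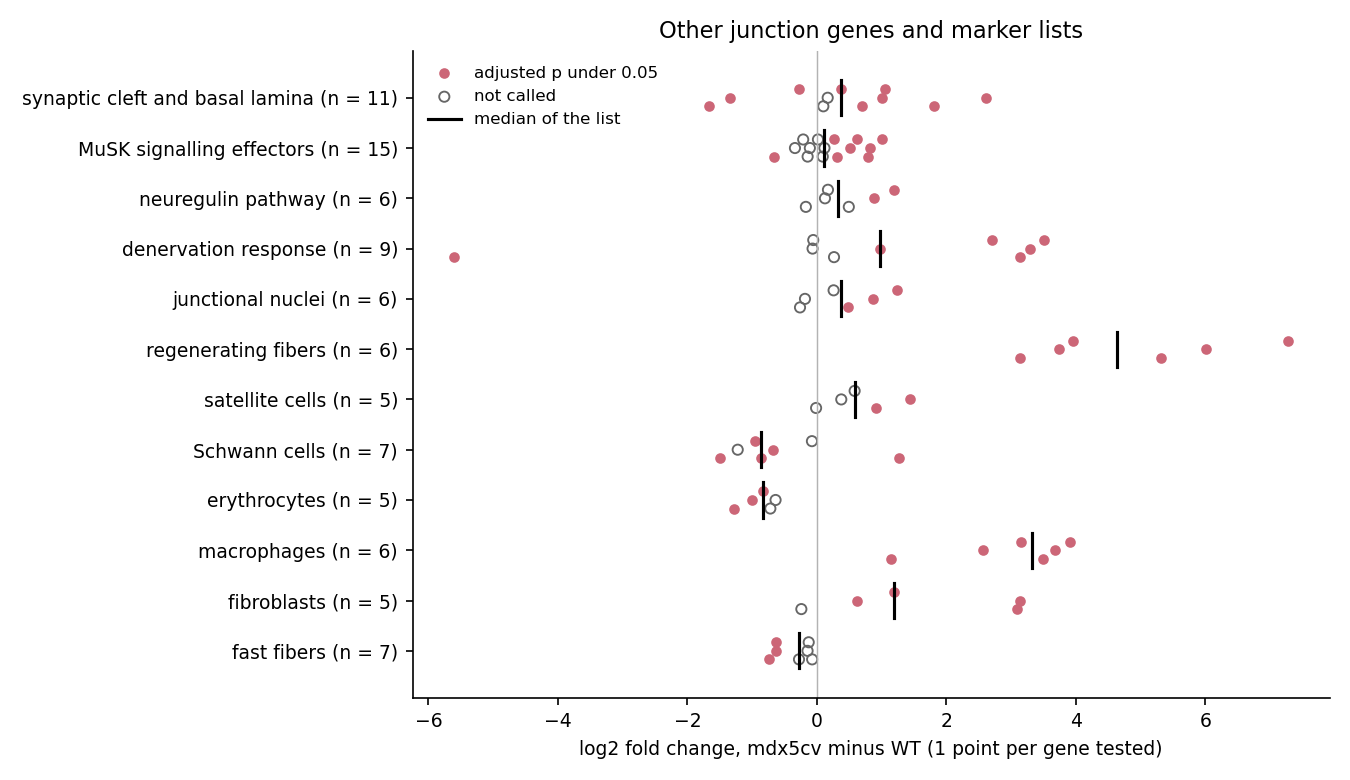
Log2 fold change (mdx5cv minus WT) of each tested gene in lists of other junction genes and of markers of cell types and fiber states, with called genes (adjusted p under 0.05) filled, other genes open and a black bar at the median of each list. Macrophage and regenerating fiber genes lie wholly to the right of 0, erythrocyte genes wholly to the left and Schwann cell genes mostly to the left. The synaptic cleft and MuSK effector lists hold genes on both sides.

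Genes reported from nuclei beneath the junction gave 3 higher and none lower of 6 tested, beside 20.9% and 20.1% of all genes. Of these genes 1 was lower when centred on the median, without WT replicate 3 or without mdx5cv replicate 4, and 2 were higher without mdx5cv replicate 1, 2 or 4. Prkar1a, a regulatory subunit of protein kinase A, rose from 887 ± 39.6 to 1237 ± 120 normalized counts (SD, n = 4 each), and the cytoskeletal linker Macf1 from 3212 ± 168 to 5891 ± 1008. Utrn, which encodes utrophin, the relative of dystrophin that is concentrated at the junction, had 1183 to 1445 in WT and 1478 to 1816 in mdx5cv, and was not called (log2 fold change 0.26, adjusted p = 0.0668 from limma).

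The receptor genes of the neuronal type had few or no reads. None of 11 reached a mean of 10 over the 8 muscles, and Chrna3, Chrna6, Chrnb3 and Chrnb4 had no read in any muscle. Chrna4 had 11.7 to 21.01 normalized counts in WT and 0 to 5.40 in mdx5cv. Chrna2 had 2.19 to 18.8 in WT and no read in mdx5cv. This is at least 3.18-fold lower than its WT mean of 8.51 with a floor of 3 reads per library. WT replicate 2, at 2.19, itself lay below that floor. With no filter on low values Chrna2, Chrna4 and Chrna9 were called lower (adjusted p = 0.000385, 0.000559 and 0.00116 from limma). Chrna9 had at most 3 reads in any WT muscle and none in mdx5cv. Its WT mean of 2.75 normalized counts lay close to that floor, at 2.68, so no fold is given for it.

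Markers of other cells moved with the genotype too. Schwann cells cover the nerve and its ending, and of 7 of their markers tested 4 were lower and 1 was higher. Of all genes, 20.1% were called lower and 20.9% higher. Ngfr, a neurotrophin receptor, rose by 1.27 on the log2 scale, with 11.1 to 19.1 normalized counts in WT and 23.4 to 44.3 in mdx5cv (adjusted p = 0.00228 from limma). The summed level of the 9 Schwann markers was 490 to 887 in WT and 329 to 514 in mdx5cv, and only 2 were lower without WT replicate 2, without WT replicate 4 or without mdx5cv replicate 4.

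All 6 macrophage markers rose, with summed levels of 481 to 746 in WT and 3565 to 8548 in mdx5cv, as did 4 of 5 fibroblast markers, with 5196 to 7870 and 17446 to 31390. Of all genes, 20.9% were called higher. Collagen genes made up most of the fibroblast sum in mdx5cv. Dcn, the fibroblast marker with the highest WT mean, was not called, with 3090 ± 1200 normalized counts in WT and 2488 ± 358 in mdx5cv (SD, n = 4 each, adjusted p = 0.425 from limma). Itgam passed the filter on mean level only through its mdx5cv values. Cd68, Lyz2, Itgam and Adgre1 led the macrophage list, with log2 fold changes of 3.15 to 3.91. Of 7 genes of fast fibers 3 were lower and none was higher, beside 20.1% and 20.9% of all genes. None was called with no filter on low values, and 1 was lower with equal totals, without WT replicate 3 or without mdx5cv replicate 1. Actn3, which was among the 3, was at 65563 to 81776 normalized counts in WT and 34435 to 53046 in mdx5cv. The summed macrophage and fibroblast markers were highest, and the summed fast fiber genes lowest, in mdx5cv replicate 4, the muscle in which Chrng, Chrna1, Chrnd and Ache were highest. Their part in the changes of the junction genes was not tested.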

How the data were processed

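Bulk RNA-seq of 4 WT and 4 mdx5cv TA muscles was analysed, grouped by the genotype in the labels. RNA was extracted with Trizol, and stranded total RNA libraries were prepared with depletion of ribosomal RNA. The deposited signal is the read count of a gene over the size factor of its sample, with no filter on genes. The submitters' processing notes name FastQC, Trim Galore 0.6.4, STAR 2.6.0c, SAMtools 1.9, featureCounts, MultiQC 1.6, DESeq2 1.26.0, R 3.6.2 and the mm10 build. The strand setting and the annotation of the counting are not given in the sources used here, so overlapping genes on opposite strands are uncertain.

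Whole reads were recovered for 100% of the values (tolerance 0.001 of a read). limma 3.58.1 in R 4.3.3 (lmFit, eBayes with a variance trend, two-sided, Benjamini-Hochberg) was run on log2(normalized count + 1) over 13677 genes, with no covariate. edgeR 4.0.16 (quasi-likelihood) and DESeq2 1.42.0 served as alternatives on these reads, and called 2869 and 3148 genes higher and 2681 and 2739 lower, against 2854 and 2743 by limma. DESeq2 was given all 55401 rows, and adjusted p-values that it left out stayed out. The other alternatives were equal totals, TMM factors, a median of equal value in each muscle, pseudocounts of 0.1 and 10, no filter, a minimum of 10 in all samples, a flat prior variance, a replicate block and each replicate left out. The fit without both WT replicate 2 and mdx5cv replicate 4, and the use of transcript lengths, were added after seeing the data. Ratios within a muscle were compared by two-sided exact permutation over samples. Replicates differed by more than sampling noise (chi-square per degree of freedom 8.59 to 38.4), and all 8 were kept. On simulated counts with a log2 fold change of 2, limma and edgeR each recovered 99.0% of 199 changed genes over 13528 genes and DESeq2 98.5% of 200 over 13677.

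The members and lists were chosen with earlier results of these data known. The genes named were all 10 members, Dmd, up to 4 genes of each list called with a log2 fold change of at least 1 in size, and the 3 genes most correlated with Chrng and with Chrne, except 2 list genes that are not reported here. Agrn, Colq and the other list genes below that fold, the uncalled genes and the neuronal subunits were named after their values were seen. Coordinates are from GENCODE M21 (GRCm38), where all 10 gene IDs were found, and promoters from RefSeq (GRCm38.p6). Other steps used Python 3.11.15 (scipy 1.17.1, pandas 2.3.3, matplotlib 3.10.9, numpy 2.4.6).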

Additional observations from a re-analysis of the deposited data

Results flagged for a closer look

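In 3 of 28 sets of 4 muscles, 1 muscle stood apart from the other three by Dixon's test on the log2 scale, where chance would give 1.4. Chrng had a log2 value of 1.04 in WT replicate 4, which is a single read, and 0 in the other WT muscles. Musk was at 6.98 in WT replicate 2, against 7.48 to 7.57 in the other WT muscles, and Ache was at 7.51 in WT replicate 2, against 8.27 to 8.41. Without WT replicate 2, Ache was still called higher and Musk was still not called.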

How the results depend on the processing

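The counts of 6 junction genes called and of 4 past the fold stayed within 1.5 times under the alternatives that were run. Calls numbered 5 to 7 when 1 replicate was left out, 8 with equal totals, 5 when centred on the median, and 5 of 9 genes with at least 10 in every sample, where Chrng was not tested. The log2 difference in the ratio of Chrng to Chrne was 5.62 to 6.21 when 1 replicate was left out (exact permutation p = 0.0571, the smallest that 3 against 4 samples allow), 5.49 without both WT replicate 2 and mdx5cv replicate 4, and 8.63 and 3.02 with pseudocounts of 0.1 and 10. Chrna1, Chrnb1, Chrnd and Ache were called in all 20 alternatives, Dok7 in 14, Chrne in 2 and Lrp4 in 1, and Musk and Rapsn in none. Over these alternatives the adjusted p of Chrne ranged from 0.00898 to 0.196 and that of Dok7 from 0.00313 to 0.0906. The log2 fold changes of Musk and Rapsn, close to 0 and not called, changed sign with equal totals (0.35 and 0.33) and when replicates were left out, over ranges of -0.15 to 0.094 for Musk and -0.087 to 0.056 for Rapsn, and were -0.27 for Musk and 0.054 for Rapsn without both WT replicate 2 and mdx5cv replicate 4.

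With the replicate number as a replicate block, 6 junction genes were called and 4 passed the fold, and the log2 ratio of Chrng to Chrne differed by 5.95 (exact sign-flip permutation p = 0.125, the smallest that 4 pairs allow). Deviations of same-numbered samples from their group means had correlations of 0.05, 0.03, 0.07 and 0.15, and those of other pairs ranged from -0.148 to 0.0741. Such deviations cancel within a group, so these correlations cannot exclude a shared batch. The labels link the samples only by the number.

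Among the lists, equal totals raised the genes called higher to 8 of 9 in the denervation list and 4 of 6 in the neuregulin list, and lowered those called lower to 1 of 7 for Schwann cells and 1 of 7 for fast fibers. All 5 erythrocyte markers were lower without mdx5cv replicate 2, 1 fast fiber gene was lower without WT replicate 3 or without mdx5cv replicate 1, and no fast fiber gene was called with no filter. Among MuSK effectors 2 genes were lower under the replicate block. Over all genes, equal totals gave 5444 higher and 820 lower calls, and centring on the median gave 2426 and 3469. Depth limits Chrng in WT and the neuronal subunits, which had few or no reads. The causes of these shifts were not tested.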
